A study of Homo sapiens with 9 samples.

Results

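The cyclins, cyclin-dependent kinases (CDKs) and CDK inhibitors of the G1 phase were followed in cells of MDA-MB-231, an established human line from triple-negative breast cancer, carrying hairpins against Coco. The set holds the D-type cyclins CCND1, CCND2 and CCND3, the E-type cyclins CCNE1 and CCNE2, the kinases CDK2 and CDK6, and the inhibitors CDKN1B (p27), CDKN1C (p57) and CDKN2C (p18). All probe sets annotated with 1 of these symbols were taken, which gave 19 of 22215 probe sets for 9 of the 10 genes. CDKN2C had 0 probe sets in the annotation used here and was not analysed here. DAND5, the gene of Coco, likewise had 0, so the knockdown itself was not checked.

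Total RNA came from 3 stable lines of the same cells, each with 3 biological replicates and 1 Affymetrix 3′ array per replicate, 9 arrays in all. The control line carried a scramble hairpin (scramble). The other lines carried a lentiviral pLKO hairpin against Coco, a secreted antagonist of BMP and Nodal signals: shRNA #2 (shco2) or shRNA #4 (shco4). The hairpin clones were TRCN0000149666 and TRCN0000148148, without a statement of which is which. All cells were grown in DMEM with 10% fetal bovine serum, and no group was untransduced. The labels give 1 stable line per hairpin, so a difference between hairpins and a difference between transduced lines cannot be told apart. Whether the replicates of a line were separate cultures is stated only as biological replicates.

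In G1, D-type cyclins pair with CDK4 and CDK6, and E-type cyclins then pair with CDK2. Both kinds of kinase phosphorylate the RB protein and release E2F factors, which drive genes of DNA replication, the E-type cyclins among them. Inhibitors of the INK4 group, such as p18, block CDK4 and CDK6. Those of the CIP/KIP group, p21, p27 and p57, bind cyclin-CDK2 complexes, and p27 is high in resting cells. The question asked of these arrays was how transcripts of the activators and the inhibitors stood beside each other in the 3 lines.

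Values are the authors' scaled intensities of a probe set on each array, and differences are on the log2 scale after values under 16 were set to 16 (the floor). A probe set is said to rise or fall where limma, fitted to all probe sets and all 9 arrays, gave a Benjamini-Hochberg adjusted p under 0.05. Array medians lay between 122 and 130, and 3 arrays per group limit the precision. The ratio of 3′ to 5′ signal for ACTB was 1.07 to 1.10 in scramble, 1.08 to 1.11 with shco2 and 1.12 to 1.14 with shco4, and that for GAPDH overlapped between lines (0.868 to 0.958, 0.878 to 0.939 and 0.882 to 0.904). All 6 markers of mesenchymal-type breast cancer lines (VIM, CD44, MSN, AXL, CAV1 and EGFR) were above 64 on every array. Their summed intensity was 41367 to 42792 in scramble, 27341 to 28546 with shco2 and 34586 to 37263 with shco4. With shco2, 5 of the 6 fell (all but AXL), while with shco4 AXL fell by 2.11, CD44 rose by 0.36 and the other 4 did not pass (limma adjusted p = 0.000248 for AXL and 0.011 for CD44). Of 8 luminal markers, PGR and FOXA1 were at the floor on all arrays and KRT19 and GATA3 were above 64 on all. The luminal sum was 5130 to 6725, 2744 to 2888 and 5266 to 5714 in the same order, and that of 7 fibroblast markers was 648 to 684, 354 to 397 and 651 to 931. Of the fibroblast markers, COL1A2 fell with shco2 (-2.36; limma adjusted p = 0.00147) and LUM rose with shco4, from 18.2 to 25.0 in scramble to 128 to 296 (10.1-fold; adjusted p = 0.0012), and the others did not pass against scramble. The part of these differences in the results below was not tested.

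The sequences before the starts of CCNE1 and CDKN1B are shown first, because their transcripts moved in opposite directions with shco4, as described below. Each run is the 250 bases before the gene's start on its own strand, from RefSeq on GRCh38.p14, and capitals mark the CCAAT box (CCAAT) and the GC box (GGGCGG), searched on both strands.
CCNE1, chr19:29811741-29811990, plus strand: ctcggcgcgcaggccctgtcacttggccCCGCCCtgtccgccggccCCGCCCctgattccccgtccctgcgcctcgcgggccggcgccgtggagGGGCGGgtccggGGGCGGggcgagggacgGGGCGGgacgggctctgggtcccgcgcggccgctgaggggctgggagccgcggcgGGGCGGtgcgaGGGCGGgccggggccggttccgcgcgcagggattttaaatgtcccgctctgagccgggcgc
CDKN1B, chr12:12717118-12717367, plus strand: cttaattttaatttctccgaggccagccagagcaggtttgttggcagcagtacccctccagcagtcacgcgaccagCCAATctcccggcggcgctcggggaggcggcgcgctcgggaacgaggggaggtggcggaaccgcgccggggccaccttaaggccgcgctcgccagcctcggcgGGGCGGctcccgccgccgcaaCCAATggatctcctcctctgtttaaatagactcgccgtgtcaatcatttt

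The CCNE1 window held 7 GC boxes and 0 CCAAT boxes, and its GC content was 81.2%. The CDKN1B window held 1 GC box, which begins 71 bases before the start, and 2 CCAAT boxes, which begin 174 and 50 bases before it, with a GC content of 64.4%. A GC box stood in 42.6% and a CCAAT box in 32.0% of all 35116 windows of this length in the table. The E2F forms TTCCCGC and TTGGCGC (either form in 7.81% of windows) and the forkhead form GTAAACA (2.98%), on both strands, had 0 matches in these windows of CCNE1 and CDKN1B. No searched motif overlapped another in them. A match describes letters only, and the table held promoters of 5 of the 10 genes (CCND3, CCNE1, CDK6, CDKN1B and CDKN2C).

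The E-type cyclins moved in opposite directions with the hairpins: both genes rose with shco2 and fell with shco4. CCNE1 (213523_at) read 367, 314 and 404 on the scramble arrays, 594, 623 and 583 with shco2, and 128, 138 and 181 with shco4. The 3 lines did not overlap, with shco2 highest and shco4 lowest. The rise of CCNE1 with shco2 was 0.74 ± 0.15 in log2 units (SE, n = 3; 1.67-fold; limma adjusted p = 0.0148). With shco4 it fell by 1.29 ± 0.15 (2.45-fold; limma adjusted p = 0.00243).

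CCNE2, the second E-type cyclin, showed the same order with a wider gap. Its probe set 205034_at read 496, 695 and 855 in scramble, 1024, 1361 and 1300 with shco2, and 157, 220 and 217 with shco4. Every shco2 array was above every scramble array, and every shco4 array below. The difference was 0.87 ± 0.24 with shco2 (1.83-fold; limma adjusted p = 0.0467) and -1.77 ± 0.24 with shco4 (3.40-fold lower; adjusted p = 0.00443). The other probe set, 211814_s_at, read 436, 600 and 386, then 960, 1038 and 903, then 90.1, 183 and 120, and again the lines did not overlap. It rose by 1.05 ± 0.28 with shco2 (limma adjusted p = 0.0422) and fell by 1.89 ± 0.28 with shco4 (adjusted p = 0.00587).

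Between the hairpin lines the E-type cyclins differed most among the cyclins and kinases measured here. Levels with shco4 were below those with shco2 by 4.08-fold for CCNE1 and by 6.23-fold and 7.69-fold at the probe sets of CCNE2 (log2 differences of -2.03, -2.64 and -2.94; limma adjusted p = 0.000197, 0.00045 and 0.000528). The falls with shco4 against scramble passed at all 3 probe sets whichever array was left out and under each other setting tried. The rises with shco2 held under fewer settings. Both CCNE2 calls ended with quantile normalization (limma adjusted p = 0.0551 at 205034_at and 0.0534 at 211814_s_at). At 205034_at the call also ended with a floor of 64, with trend and robust in eBayes and with only the scramble and shco2 arrays (0.0546, 0.0511 and 0.082), and at 211814_s_at with median centring (0.0502). The CCNE1 call ended without shco2 replicate 2 (limma adjusted p = 0.0514). The call at 205034_at ended when any of 7 arrays was dropped singly (all but scramble replicate 3 and shco4 replicate 1; adjusted p up to 0.134). That at 211814_s_at ended with any of 6 dropped (all but scramble replicate 2 and shco4 replicates 1 and 2; up to 0.124).

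**Figure D1:**
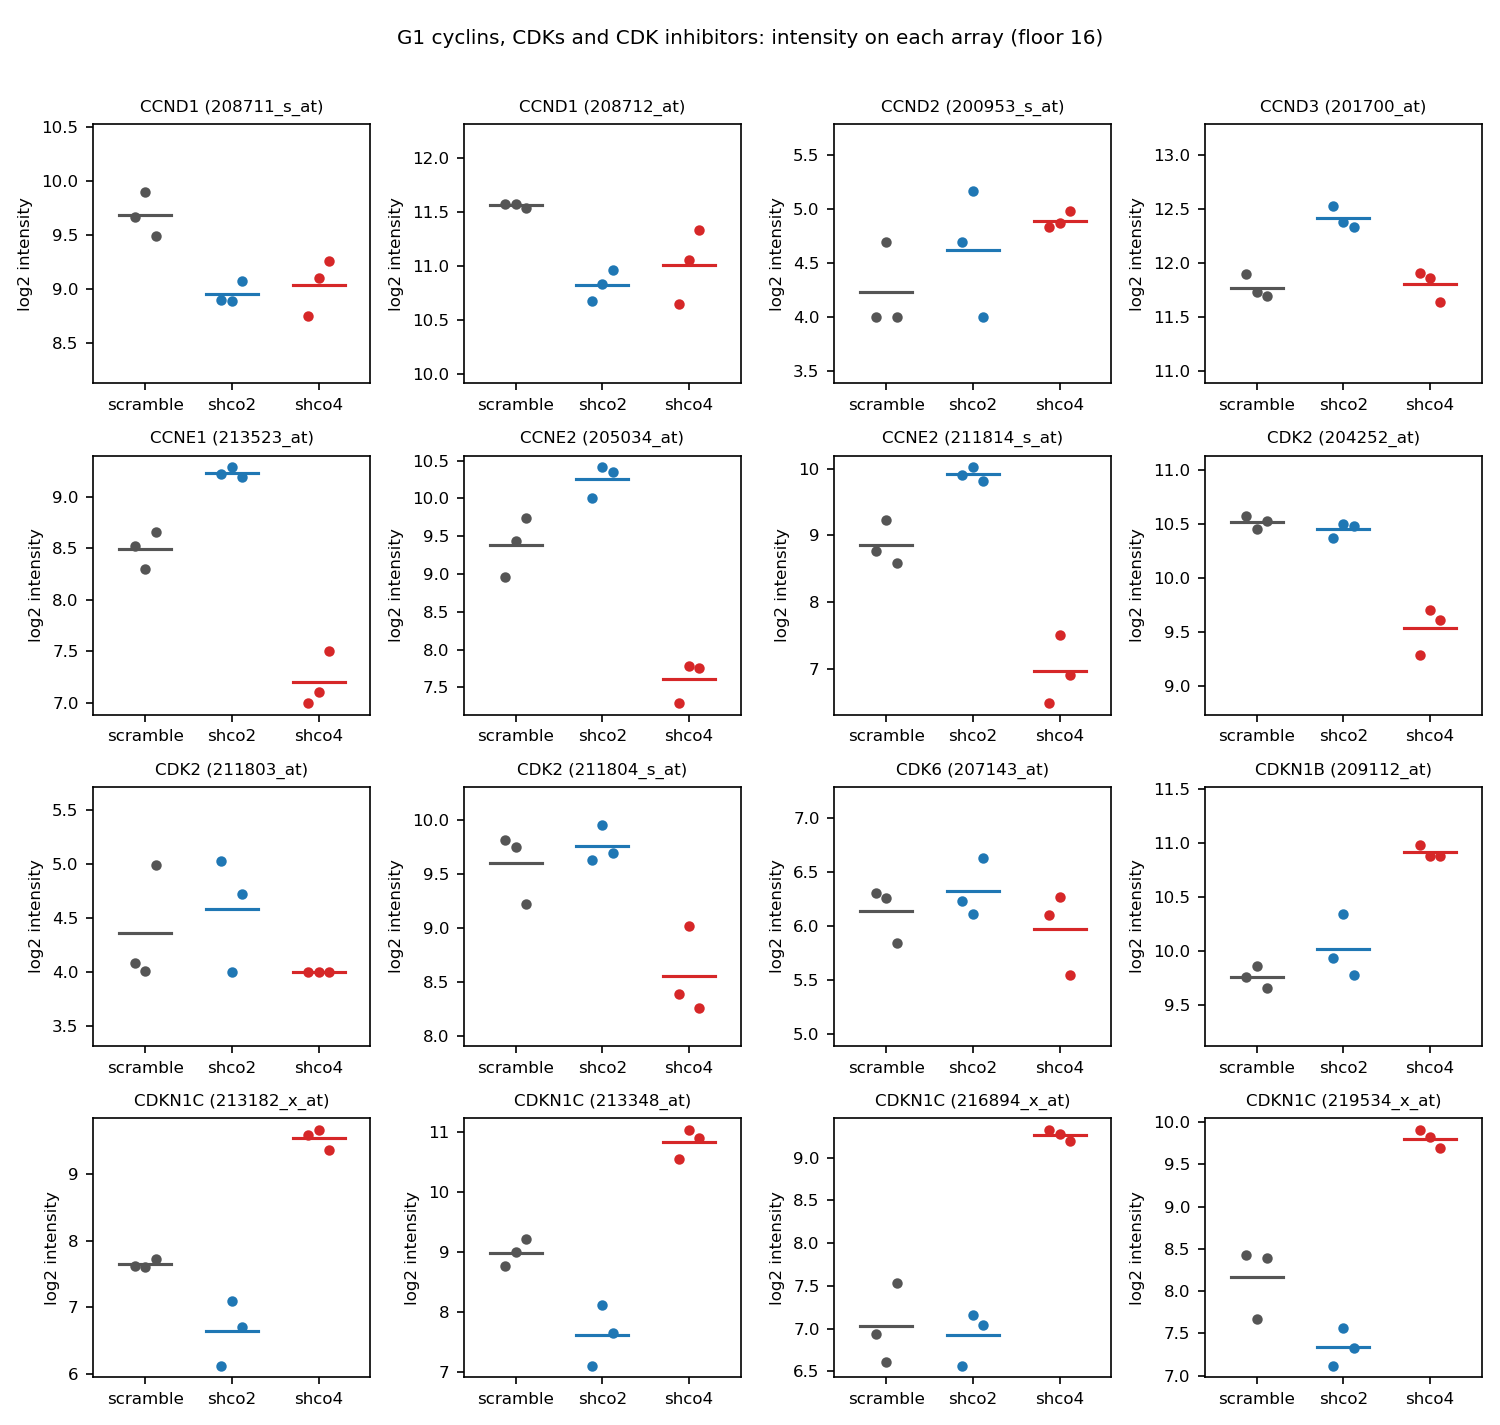
Log2 intensity (y axis) of the 16 probe sets above the floor of 16 on at least 1 array, by line (x axis); points are arrays, 3 per line, and bars are line means. CCNE1 and CCNE2 stand highest with shco2 and lowest with shco4, CDKN1B and CDKN1C stand highest with shco4, and the y axes differ between panels.

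CDK2, the kinase partner of E-type cyclins, fell with shco4 and did not pass with shco2. Its brighter probe set, 204252_at, read 1526, 1398 and 1476 in scramble, 1324, 1444 and 1428 with shco2, and 624, 831 and 779 with shco4. The shco4 arrays lay below all others, and the scramble and shco2 arrays overlapped. The fall with shco4 was 0.99 ± 0.11 (SE, n = 3; 1.98-fold; limma adjusted p = 0.00207) and the difference with shco2 was -0.07 (95% interval -0.32 to 0.19; adjusted p = 0.802). The probe set 211804_s_at, with 597 to 901 in scramble, 792 to 989 with shco2 and 306 to 516 with shco4, fell with shco4 by 1.05 (adjusted p = 0.0303). Dropping scramble replicate 1 or 2, replicate 3 of shco2, or replicate 1 or 3 of shco4 ended that call (adjusted p up to 0.0969), as did a fit of only the scramble and shco4 arrays (0.0868). The remaining probe set of CDK2, 211803_at, stayed at 32.7 or below on every array, was at the floor on all 3 shco4 arrays and did not pass in any comparison.

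The D-type cyclins did not move together. CCND1, the most studied D-type cyclin in breast cancer, fell with shco2. Its probe set 208712_at read 3053, 3049 and 2975 in scramble, 1637, 1829 and 1992 with shco2, and 1604, 2124 and 2587 with shco4, so that both hairpin lines lay below scramble on every array and overlapped each other. The fall with shco2 was 0.74 ± 0.17 (SE, n = 3; 1.67-fold; limma adjusted p = 0.0252). With shco4 the difference was -0.55 ± 0.17 and did not pass (adjusted p = 0.0709), but it passed without shco4 replicate 3 (0.0245) and when only brighter probe sets were tested (0.0284). At 208711_s_at, arrays read 811, 957 and 721 in scramble, 477, 475 and 539 with shco2, and 430, 551 and 614 with shco4, and again both hairpin lines lay below scramble.

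CCND1 at 208711_s_at fell by 0.73 with shco2 (limma adjusted p = 0.0201) and by 0.65 with shco4 (adjusted p = 0.0338). The shco4 call ended with a block for the replicate number (adjusted p = 0.054), with median centring (0.0541), with only the scramble and shco4 arrays in the fit (0.095), and when any of 7 arrays was dropped (all but scramble replicate 3 and shco4 replicate 3; up to 0.0978). The shco2 calls ended with any of 4 arrays dropped at 208711_s_at (scramble or shco2 replicate 1 or 2; up to 0.0661) and with any of the 6 scramble and shco2 arrays dropped at 208712_at (up to 0.0809). Levels of CCND1 with shco4 and shco2 differed by 0.08 (95% interval -0.29 to 0.46) and 0.19 (-0.22 to 0.59), and neither passed.

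CCND3, another D-type cyclin, rose with shco2. It read 3797, 3382 and 3310 in scramble, 5895, 5329 and 5161 with shco2, and 3822, 3710 and 3185 with shco4. All shco2 arrays were above all others, and scramble and shco4 overlapped. The rise was 0.64 ± 0.09 (SE, n = 3; 1.56-fold; limma adjusted p = 0.00453), the only call of shco2 against scramble at a member that held with every array left out and under each other setting tried. With shco4 the difference was 0.03 (95% interval -0.19 to 0.25; adjusted p = 0.977), and shco4 lay below shco2 by 0.61 (adjusted p = 0.00302).

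CCND2, the remaining D-type cyclin, was near or at the floor. A pair of its 3 probe sets was at the floor on all 9 arrays, and 200953_s_at reached at most 35.9, so no change could be read. CDK6, a kinase partner of D-type cyclins, had 1 probe set with 57.5 to 79.1 in scramble, 69.1 to 99.0 with shco2 and 46.9 to 77.2 with shco4. The lines overlapped, and the differences of 0.19 (95% interval -0.38 to 0.76) and -0.16 (-0.73 to 0.41) from scramble did not pass (limma adjusted p = 0.721 and 0.773).

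CDKN1B, which encodes p27, rose with shco4. It read 868, 931 and 807 in scramble, 978, 1296 and 878 with shco2, and 2017, 1875 and 1885 with shco4. The shco4 arrays were above all others, while scramble and shco2 overlapped. The rise with shco4 was 1.15 ± 0.14 (SE, n = 3; 2.22-fold; limma adjusted p = 0.0032) and shco4 lay 0.89 ± 0.14 above shco2 (1.86-fold; adjusted p = 0.00383). Both calls held with every array left out and under each other setting tried. With shco2 the difference of 0.26 did not pass (95% interval -0.08 to 0.60; adjusted p = 0.292).

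CDKN1C, which encodes p57, had the largest differences of the set. Its brightest probe set, 213348_at, read 433, 510 and 593 in scramble, 137, 275 and 199 with shco2, and 1507, 2099 and 1920 with shco4. The 3 lines did not overlap, in the order opposite to that of the E-type cyclins: shco2 was lowest and shco4 highest. CDKN1C rose here with shco4 by 1.84 ± 0.27 (SE, n = 3; 3.59-fold; limma adjusted p = 0.00582) and fell with shco2 by 1.38 ± 0.27 (2.59-fold; adjusted p = 0.0148). The fall with shco2 ended without scramble replicate 3 (adjusted p = 0.0524). Between the hairpin lines the level with shco4 was 9.32-fold that with shco2 (log2 difference 3.22 ± 0.27; adjusted p = 0.000351).

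Of the other 4 CDKN1C probe sets, 3 rose with shco4 and 2 fell with shco2. At 213182_x_at the arrays read 194 to 211 in scramble, 69.8 to 137 with shco2 and 659 to 811 with shco4. At 219534_x_at they read 204 to 343, 139 to 190 and 826 to 960. These rose with shco4 by 1.89 and 1.64 (limma adjusted p = 0.00325 and 0.00439) and fell with shco2, 2.01-fold and 1.77-fold (adjusted p = 0.0268 and 0.0445). The falls ended with any of 4 arrays dropped at the first (each scramble array and shco2 replicate 3; adjusted p up to 0.0821) and any of 8 at the second (all but scramble replicate 2; up to 0.13). With only the scramble and shco2 arrays in the fit neither passed (0.0722 and 0.108), and the second also ended with a floor of 64 (0.052) and with the replicate block (0.0933).

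At 216894_x_at CDKN1C read 97.8 to 185 in scramble and 94.7 to 143 with shco2, which overlapped, and 587 to 641 with shco4. It rose with shco4 by 2.24 ± 0.26 (SE, n = 3; 4.72-fold; limma adjusted p = 0.00254), while the difference with shco2 was -0.10 (95% interval -0.72 to 0.52; adjusted p = 0.95). Whether the probe sets of CDKN1C differ from each other in their shco2 change was not tested. The last probe set, 219533_at, was at the floor on all arrays. The suffix x_at marks probe sets whose probes may also bind other transcripts. The unmarked 213348_at gave the largest difference between the hairpins, but not the largest rise with shco4 against scramble. That rise was 1.84 at 213348_at, against 2.24 at 216894_x_at, 1.89 at 213182_x_at and 1.64 at 219534_x_at. In lysates of whole cultures, more cells with the transcript and more of it per cell cannot be told apart, here and for the other genes.

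**Figure D2:**
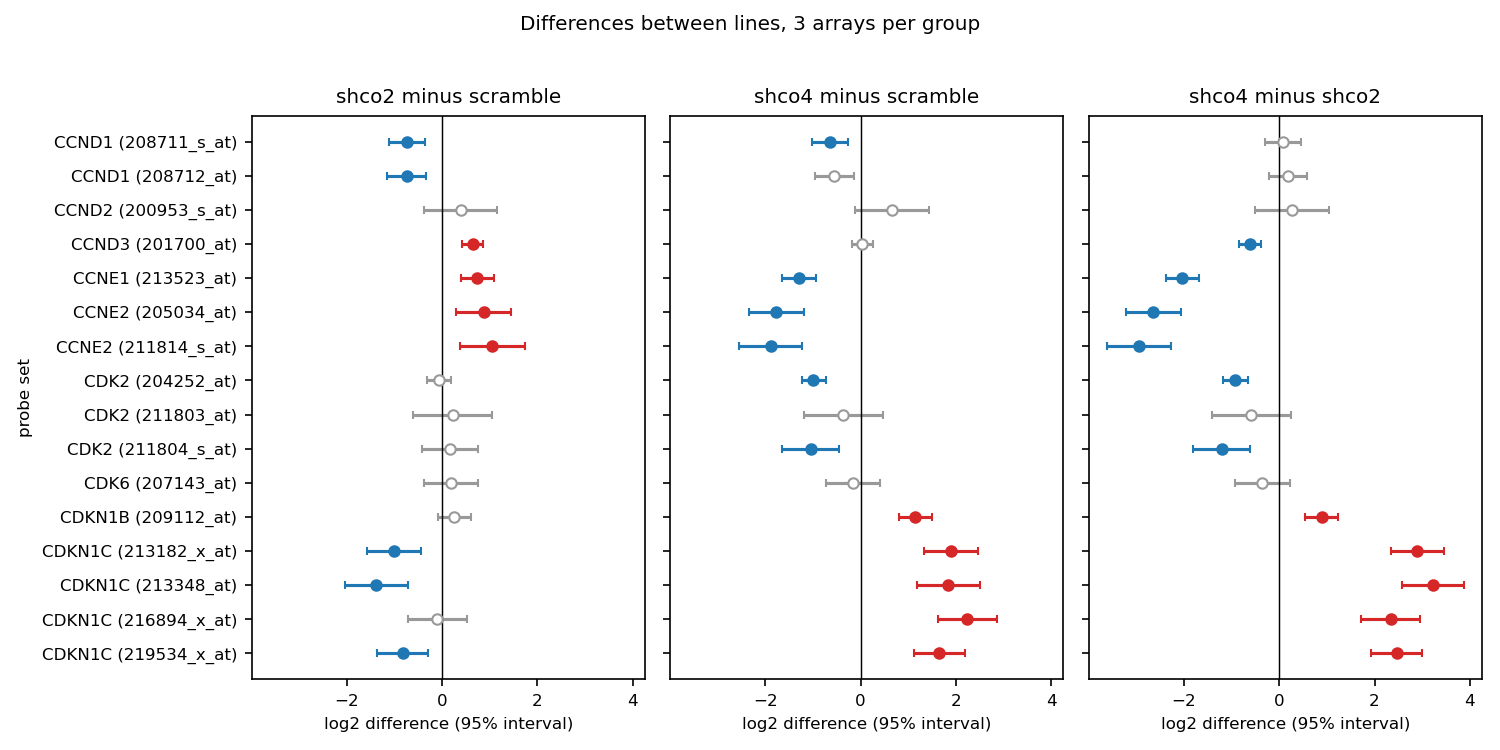
Log2 difference (x axis) with its 95% interval for each probe set (y axis), 3 arrays per line; filled points passed at an adjusted p under 0.05, red higher and blue lower. With shco4 the E-type cyclins and CDK2 lie left of 0 and p27 and p57 right of it, while with shco2 the E-type cyclins lie right of 0 and the 4 plotted probe sets of CDKN1C left of it, 3 of them with a call.

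Counted over probe sets, 9 of 19 changed with shco2, 4 rising and 5 falling; of all 22215 probe sets 20.7% changed, 10.7% rising and 9.95% falling. With shco4, 11 of 19 changed, 5 rising and 6 falling, against 18.8%, 9.05% and 9.75% of all. Between the hairpins, 11 of 19 differed, 5 higher and 6 lower with shco4, against 31.0%, 14.9% and 16.1% of all. Arrays did not overlap for 4 higher and 5 lower with shco2 (19.4% and 16.4% of all probe sets). The same held for 6 higher and 8 lower with shco4 (16.7% and 15.9%), and for 5 higher and 6 lower with shco4 against shco2 (20.1% and 20.8%). The counts of shco4 against scramble include CCND2 at 200953_s_at (higher) and CDK2 at 211803_at (lower), both near the floor. The median difference over the 19 was 0.00 in each comparison, as over all probe sets. Probe sets of 1 gene share a transcript, and the comparisons with scramble share the scramble arrays, so these counts are not independent.

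The calls differed in how firmly they held. Between the hairpin lines all 11 calls held whichever array was left out and under the 7 other settings tried. Against scramble, 9 of 11 did so with shco4 and 1 of 9 with shco2. With single arrays dropped, the shco2 counts went down to 1 rising (without shco2 replicate 2) and 1 falling (without scramble replicate 1 or 3). Of the 9 with shco4, 3 were the E-type cyclin probe sets, 1 was CDK2, 1 was CDKN1B and 4 were CDKN1C.

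**Figure D3:**
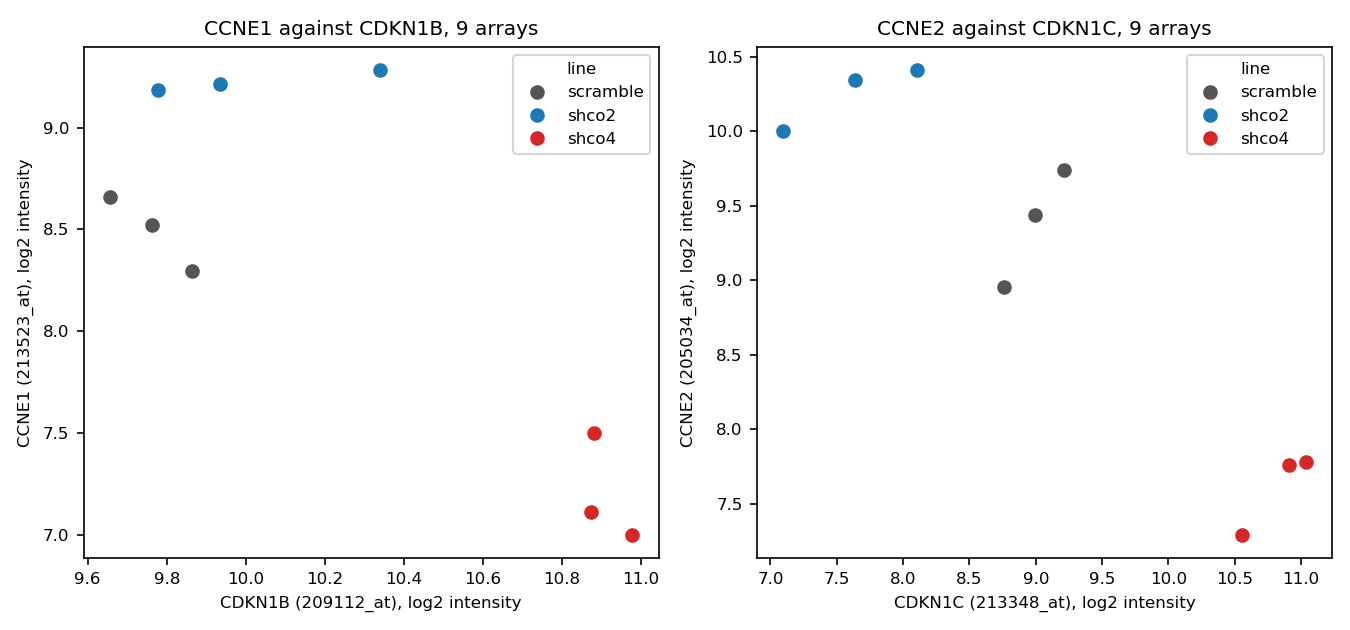
Log2 intensity on each of the 9 arrays: CCNE1 (y axis) against CDKN1B (x axis) at left, and CCNE2 at 205034_at (y axis) against CDKN1C at 213348_at (x axis) at right, coloured by line. The shco4 arrays lie at high inhibitor and low cyclin E in both panels; the shco2 arrays lie at high cyclin E, with CDKN1C below scramble but CDKN1B overlapping it.

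The counts for gene lists that follow are read against the shares of all probe sets that changed, 10.7% rising and 9.95% falling with shco2 and 9.05% and 9.75% with shco4. No share of all probe sets was taken at an unadjusted p under 0.05, so counts at that threshold cannot be read against one. The remaining CIP/KIP gene had the opposite order to p57. CDKN1A, the CIP/KIP inhibitor p21, rose with shco2 by 0.61 ± 0.11 (SE, n = 3; limma adjusted p = 0.0107) and fell with shco4 by 0.71 ± 0.11 (adjusted p = 0.00721). Its arrays read 907 to 979 in scramble, 1362 to 1597 with shco2 and 495 to 646 with shco4, so that p21 had the order of the E-type cyclins and not that of p57. Of the 5 inhibitors on this list, 2 rose with shco2 (CDKN1A and CDKN2D) and 0 fell, and 0 rose and 2 fell with shco4 (CDKN1A and CDKN3). Those at an unadjusted p under 0.05 were 3 higher and 0 lower with shco2, and 0 higher and 2 lower with shco4. CDKN2D, the INK4 inhibitor p19, rose by 0.49 with shco2 (adjusted p = 0.0392), but this ended with any array but scramble replicate 1 or shco4 replicate 3 dropped (up to 0.114) and with the replicate block (0.0705). CDKN3, a phosphatase that acts on CDKs, fell by 0.65 with shco4 (adjusted p = 0.0217), which ended with any scramble array dropped (up to 0.0736). CDKN2A read 38.2 to 65.6 over all arrays, CDKN2B was at the floor on all, and neither passed.

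Of 12 other cyclins, CDKs and their activating enzymes, 5 rose and 1 fell with shco2 (median 0.22), and 0 rose and 4 fell with shco4 (median -0.25; 1 upward and 5 downward at an unadjusted p under 0.05). The falls numbered 2 without scramble replicate 1 or 2 or shco4 replicate 1 or 3. CDK4, the kinase partner of D-type cyclins, rose with shco2 by 0.43 ± 0.05 and fell by 0.38 ± 0.05 with shco4 (SE, n = 3; limma adjusted p = 0.00195 and 0.00347). MNAT1, the assembly factor of the CDK-activating kinase, rose by 0.60 and fell by 0.62 (adjusted p = 0.00335 and 0.0035). CDC25A, the phosphatase that activates cyclin E-CDK2, rose by 0.78 and fell by 0.82 (adjusted p = 0.019 and 0.0182), and each of these calls ended with any of 4 arrays dropped (replicates 1 and 3 of scramble and shco2, up to 0.0646; scramble replicates 1 and 2 and shco4 replicates 1 and 3, up to 0.0632). The replicate block also ended the rise (0.0505). CDC25B, which acts later in the cycle, fell with shco2 by 0.62 (adjusted p = 0.00259).

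Among 15 genes of the turnover and transcription of p27, p57 and cyclin E, 3 rose and 4 fell with shco2, and 3 rose and 2 fell with shco4. The rises numbered 1 with shco2 without scramble replicate 1 or 3 or any shco2 array, and 1 with shco4 without shco2 replicate 3 or any shco4 array. SKP2, the ubiquitin ligase subunit that marks p27 protein for destruction, fell with shco4 by 1.35 ± 0.06 (SE, n = 3; 2.56-fold; limma adjusted p = 0.000248) and with shco2 by 0.38 ± 0.06 (adjusted p = 0.00785). FOXO3, a forkhead factor known to act on the p27 gene, fell with shco2 by 0.96 and with shco4 by 0.43 (adjusted p = 0.000422 and 0.0064). RNF123, a ubiquitin ligase of p27 in G1, fell with shco2 by 0.45 and rose with shco4 by 0.44 (adjusted p = 0.00777 and 0.00999). DYRK1A, a kinase that acts on cyclin D1 and on the DREAM repressor complex, rose by 0.21 with shco2 (adjusted p = 0.024), which ended without scramble replicate 1 or 3 or any shco2 array (up to 0.0778) and with the replicate block (0.0593). SKP2 and RNF123 were read at x_at probe sets, whose probes may also bind other transcripts. These are transcript levels, and protein levels of p27 were not measured here.

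Of 20 measured E2F targets of S phase entry, 17 fell and 0 rose with shco4 (median -1.20; 0 upward at an unadjusted p under 0.05). CCNE1 and CCNE2 are 2 of the 17, and of the other 18 genes 15 fell (median -1.18). GINS1 and ORC1, parts of the replication machinery, fell, with differences of -2.37 ± 0.22 and -2.13 ± 0.19 (SE, n = 3; limma adjusted p = 0.00131 and 0.00109). CDC6, which loads the replicative helicase, and UNG, a DNA repair glycosylase, fell too (-1.77 and -0.80; limma adjusted p = 0.000741 and 0.000164). With shco2 the list's 2 calls, both upward, were CCNE1 and CCNE2 themselves. None of the other 18 genes passed (limma; median 0.31; 5 upward and 0 downward at an unadjusted p under 0.05). Without shco4 replicate 1 the list had 7 calls upward, without shco4 replicate 2 it had 3, without shco2 replicate 2 it had 0, and without scramble replicate 1 or 2, shco2 replicate 1 or 3 or shco4 replicate 3 it had 1. GINS1 differed by 0.51 and ORC1 by 0.54 with shco2 (limma adjusted p = 0.179 and 0.101).

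Of 12 RB family and E2F factor genes, 0 rose and 4 fell with shco4, and 2 rose and 1 fell with shco2. The fall with shco2 was RB1, the gene of the RB protein (-1.10, limma adjusted p = 0.00493). This call held whichever array was left out and with the replicate block (0.00606). With shco4 RB1 differed from scramble by -0.21 and did not pass (0.479), and it lay 0.89 above shco2 (0.00658). At an unadjusted p under 0.05, 0 were higher and 7 lower with shco4. The falls with shco4 numbered 1 without scramble replicate 1 and 2 without scramble replicate 2, and the rises with shco2 numbered 4 without shco4 replicate 1. E2F1 fell with shco4 by 1.26 ± 0.24 (SE, n = 3; limma adjusted p = 0.0155), which ended without scramble replicate 1 or shco4 replicate 1 (adjusted p up to 0.052). E2F8, a repressing E2F, fell by 1.56 (adjusted p = 0.00721). TFDP2, a dimer partner of E2F factors, rose with shco2 by 0.75 (adjusted p = 0.000961) and fell with shco4 by 0.31 (adjusted p = 0.0228), and the fall ended without scramble replicate 1 or 2 or shco4 replicate 2 or 3 (up to 0.0767). E2F6, another repressing E2F, rose with shco2 by 0.52 (adjusted p = 0.00612).

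Of 14 G2 and M phase markers, 2 fell and 0 rose with shco4 (median -0.45), and 2 rose and 0 fell with shco2 (median 0.08). These counts against scramble are near the shares of all probe sets (9.75% falling with shco4 and 10.7% rising with shco2). Between the hairpins, 7 of the 14 were lower and 0 higher with shco4 (median -0.41), against 16.1% and 14.9% of all. With single arrays dropped, 5 to 7 were lower and 0 to 2 higher in that comparison. At an unadjusted p under 0.05, 8 were lower and 0 higher with shco4, and 3 were higher and 1 lower with shco2. With shco4 the falls numbered 0 without scramble replicate 1 or 2 or any shco2 array and 1 without shco4 replicate 2. With shco2 the rises numbered 0 without scramble replicate 1 or 3 or any shco2 array and 1 without scramble replicate 2. MKI67, the gene of the proliferation marker Ki-67, fell with shco4 by 0.70 (limma adjusted p = 0.0348), which ended with the replicate block (0.0565) and with any array but shco4 replicate 1 or 3 dropped (up to 0.105). AURKB, a mitotic kinase, rose with shco2 by 0.70 (limma adjusted p = 0.0383), which ended with any scramble or shco2 array dropped (up to 0.114). The proliferation factors FOXM1 and MYBL2 had shco4 differences of -0.57 and -1.34 that missed the threshold (limma adjusted p = 0.0549 and 0.071). Both were lower with shco4 than with shco2 (-0.93 and -2.25; limma adjusted p = 0.00545 and 0.00695). The part of a changed share of cycling cells in the cyclin and inhibitor results was not tested.

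Of 13 genes for signals upstream of D-type cyclins, 1 rose and 2 fell with shco2, and 3 rose and 2 fell with shco4 (medians -0.12 and -0.10). Apart from the 3 rises, against 9.05% of all probe sets, these counts are near the shares of all (10.7% and 9.95% with shco2, 9.75% falling with shco4). With shco4 the falls numbered 1 with any array but shco4 replicate 3 dropped. The rises with shco4 numbered 2 with any array but scramble replicate 2 or shco4 replicate 3 dropped. FOSL1, an AP-1 subunit, fell with shco4 by 1.39 ± 0.19 (SE, n = 3; limma adjusted p = 0.00468) and differed by -0.12 with shco2 (adjusted p = 0.801). NFKB1, an NF-kB subunit, rose with both hairpins, by 0.70 and 0.57 (adjusted p = 0.000704 and 0.00162). RELA, another NF-kB subunit, fell with shco2 by 0.49 (adjusted p = 0.0022) and rose with shco4 by 0.21 (adjusted p = 0.0454), and the rise ended with the replicate block (0.0521) and with any array but scramble replicate 2 dropped (up to 0.122). STAT3, a transcription factor of cytokine signalling, rose with shco4 by 0.57 (adjusted p = 0.0104).

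**Figure D4:**
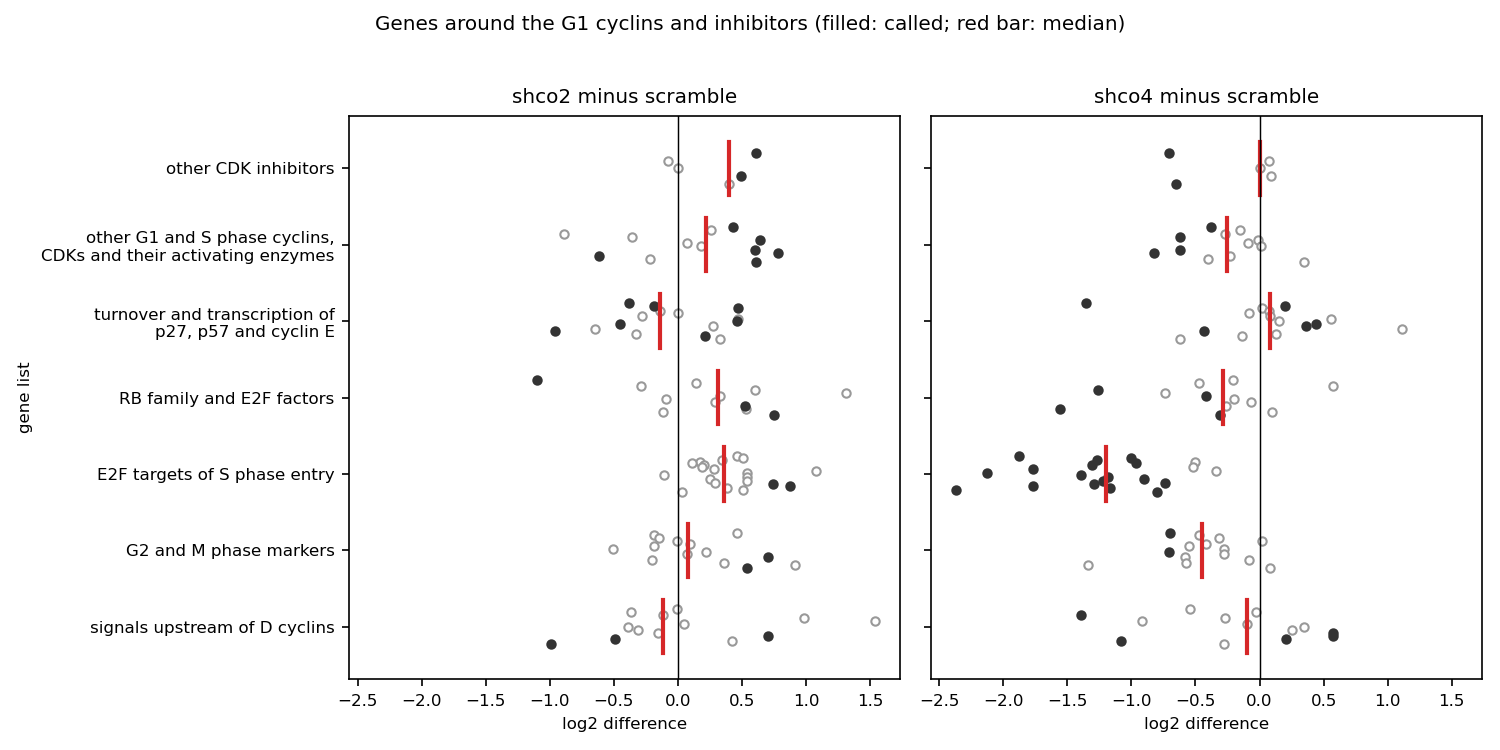
Log2 difference from scramble (x axis) of each gene of 7 lists (y axis) with shco2 at left and shco4 at right; filled points passed at an adjusted p under 0.05 and red bars are list medians. The E2F targets, which include CCNE1 and CCNE2, lie left of 0 with shco4 (median -1.20), and their median with shco2 is 0.36.

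Likeness of pattern was taken as Pearson r of log2 intensity over the 9 arrays, among 4178 probe sets, and is a description of arrays that fall into 3 lines. The 5 genes most like CDKN1B were TCEA2 (r = 0.982), FBXL5 (0.981), the histone genes H2BC9 (0.981) and H4C8 (0.974), and WDR37 (0.976). Their differences with shco4 ran from 0.90 (FBXL5) to 2.87 (H4C8). The 5 most like CCNE2 were STOM (0.992), DUT (0.991), SDR39U1, SGSH and GFOD3P (0.990 each). For DUT, an enzyme of nucleotide metabolism, the shco2 and shco4 differences were 0.26 and -0.71, and for STOM, a membrane protein, 0.65 and -1.15.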

How the data were processed

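Affymetrix 3′ arrays were hybridised with biotin-labelled cRNA made from 200 ng of total RNA, per the labels' protocols. The authors deposited 1 table of 22277 probe sets with scaled linear intensity values, 1 column per array. Summary software: not given in the sources used here. Each array's group and replicate number were read from its own labels. After 62 control probe sets were removed, log2 values were taken with a floor at an intensity of 16. For 22215 probe sets a mean per line was estimated from the 9 arrays together with limma 3.58.1 in R 4.3.3 (lmFit and eBayes; prior degrees of freedom 0.53, with 2611 probe sets at the floor throughout). Tests are two-sided, with Benjamini-Hochberg adjustment over all probe sets of a comparison. The code of the fit was run on simulated independent arrays with added changes, which does not test its error rates on these data.

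The platform annotation gave 1 symbol to 19064 probe sets, several to 1043 and none to 2108. For the lists, a gene was read at its brightest probe set with 1 symbol. The probe sets of SKP2, RNF123, FOXM1, CD44 and CDKN2A, and of STOM, DUT and H2BC9, carry the suffix x_at. Named are all members, up to 4 genes per list with the smallest p, and the 5 genes most like CDKN1B and CCNE2 among probe sets with a mean over 7 and a range over 1 (log2). RB1 is named besides, as the gene of the RB protein. Members and lists were chosen with earlier results of these data known, and support nothing independently. Deviations of same-numbered arrays from their group means correlated at 0.133 to 0.235 between scramble and shco4. The labels give only replicate numbers, and arrays of different number were not compared in this way, so whether the numbers pair the lines was not settled. For shco2 the correlations ran from 0.0571 to 0.29 with scramble and from 0.0576 to 0.213 with shco4. In each of these comparisons 2 of 3 pairs were over 0.1. The main fit held no term for the replicate number, which entered only as a block among the alternatives. P-values set a difference between lines against the spread among replicate arrays within the lines. They hold no spread between separately transduced lines of 1 hairpin. The alternatives were quantile normalization, median centring, a floor of 64, only probe sets above 64 on at least 3 arrays, eBayes with trend and robust, only the lines compared, the replicate number as a block, and each array left out in turn.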

Additional observations from a re-analysis of the deposited data

How the results depend on the processing

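The count of members rising with shco2 was 2 with quantile normalization in place of 4, and 1 to 4 with each array left out in turn. The count falling with shco2 was 3 in place of 5 with only the scramble and shco2 arrays in the fit, and 1 to 4 with each array left out. The member counts of the other comparisons stayed within 1.5 times under every setting.

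The replicate block ended the shco4 call of CCND1 at 208711_s_at (adjusted p = 0.054) and the shco2 call of CDKN1C at 219534_x_at (0.0933), and no other call at a member. With the replicate block, a setting chosen for the lists after the data were seen, other CDK inhibitors rising with shco2 numbered 1. For the other cyclins, CDKs and activating enzymes it gave 2 falling with shco2, 1 rising with shco4, and 2 higher and 7 lower between shco4 and shco2 (1 and 4 without it), and for G2 and M markers 1 falling with shco2. No share of all probe sets was taken with the replicate block, so these counts cannot be read against one. With any probe set of a gene in place of the brightest, the other cyclins and CDKs falling with shco2 numbered 2, and RB and E2F genes rising numbered 4 with shco2 and 1 with shco4.

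Signs turned only for differences that did not pass. CCND3 with shco4 was -0.01 under quantile normalization and ran from -0.02 to 0.11 with each array left out. The range was -0.03 to 0.23 for CCND1 at 208711_s_at and -0.04 to 0.54 for CCND2 at 200953_s_at between the hairpins, and -0.31 to 0.05 for CDK6 with shco4. With shco2 it was -0.00 to 0.54 and -0.03 to 0.27 for CDK2 at 211803_at and 211804_s_at, and -0.31 to 0.15 for CDKN1C at 216894_x_at. Probe sets at the floor give no value, among them 211803_at of CDK2 with a floor of 64 for shco4 against scramble.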
